A study of Mus musculus with 6 samples.

Results

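The sarcomere and contractile genes are a set of 46 mouse genes listed by symbol, which encode parts of striated muscle sarcomeres, of smooth muscle and of the actin and myosin machinery that most cells carry. Of these, 43 had a row among the 22913 genes of the deposited tables, and 34 had enough reads to be tested. Myl3, Myl7 and Mybpc3 had no row and were not analysed here. The cells carry the label HL-1, a mouse line that was derived from atrial heart muscle and is known for keeping cardiac sarcomere proteins in culture. In the control group 3 libraries came from cells with a control plasmid, and in the HSPA1A group 3 libraries came from cells with a plasmid for overexpression of HSPA1A, the stress-inducible chaperone of the HSP70 family. The labels call the transfected gene human. The cells of both groups were kept in DMEM with 10% fetal bovine serum, penicillin and streptomycin, and the labels' protocol gives transfection with Lipofectamine 2000 and harvest after 48 h. Polyadenylated RNA was sequenced. The labels do not say whether libraries came from separate cultures, so each p-value refers to the variation among these 6 libraries only, and that variation may be technical.

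In a sarcomere, thin filaments of actin, tropomyosin and troponin slide along thick filaments of myosin. The thin filaments are anchored in the Z-disc by alpha-actinin, titin spans from the Z-disc to the M-band, and calcium binding to troponin C lets myosin reach actin. Smooth muscle and nonmuscle cells use related proteins, but their myosin II is switched on by phosphorylation of its regulatory light chain. Many of these genes are known targets of the serum response factor SRF, which binds a DNA element called the CArG box.

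Library totals ran from 23849656 to 26897086 read counts. A principal component analysis of log2 values had 34.3% of the variance on its leading axis, which placed HSPA1A replicate 2 at -15.1, beyond the controls (-8.27 to -4.33) and away from HSPA1A replicates 1 and 3 (15.9 and 18.3). The comparisons are therefore given with and without HSPA1A replicate 2. Mouse Hspa1a had 10, 17 and 11 reads in the controls and 17, 20 and 11 in the HSPA1A libraries, and it did not pass the test (adjusted p = 0.795, edgeR's quasi-likelihood test). Its mouse relative Hspa1b did not pass either (log2 fold change 0.101, adjusted p = 0.903, same test). Reads were counted on mouse genes, so a human plasmid transcript is not measured directly here. Whether HSPA1A was raised in the HSPA1A libraries was therefore not tested.

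Levels are compared between genes as deposited FPKM, which is scaled by gene length. The set was dominated by genes grouped here as nonmuscle or broad, which held 93.2% to 94.2% of its summed FPKM in each library. That group includes the tropomyosin genes Tpm1, Tpm2, Tpm3 and Tpm4. A value per gene does not separate their muscle and nonmuscle transcripts, so the share depends on this grouping. Myl6, the essential light chain of nonmuscle and smooth muscle myosin, was the highest, at 1179.11, 1162.71 and 1167.51 FPKM in the control libraries and 1194.63, 1187.88 and 1235.72 FPKM in the HSPA1A libraries, each in order of replicate number. It ranked 72nd by mean FPKM among the 22833 genes with an FPKM value. Tpm4, a tropomyosin of nonmuscle cells, followed at 472.79, 469.57 and 472.35 FPKM in control and 425.52, 477.92 and 456.53 FPKM in HSPA1A libraries. Myl12a, a regulatory light chain of nonmuscle myosin, stood at 331.78, 333.58 and 310.3 FPKM in control and 318.63, 331.51 and 339.57 FPKM in HSPA1A libraries. The groups overlapped for both. Myh9, the nonmuscle myosin IIA heavy chain, Tpm3, another tropomyosin, and Flna, the actin crosslinker filamin A, also averaged over 100 FPKM. In all, 6 of the 43 genes averaged at least 100 FPKM, all in the nonmuscle or broad group, 17 at least 10 and 26 at least 1.

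Several defining striated muscle genes were at or near 0. Of the 23 striated genes with a row, 16 were tested and 7 had too few reads, and 14 averaged under 1 FPKM. Among those 14, the troponin genes Tnnt1, Tnni1 and Tnnt3 and the light chain gene Myl4 had 80, 127, 140 and 175 reads over all libraries and were tested. The cardiac actin gene Actc1 (ENSMUSG00000068614.7, GRCm38 chromosome 2, 114047282 to 114053548, minus strand) had 1, 0 and 2 reads in the control libraries and no read in any HSPA1A library. A count of 0 allows up to 3 reads, or 0.112 to 0.126 CPM (counts scaled to a common library total) in these HSPA1A libraries, and this limit covers counting error only. Actn2, the alpha-actinin of the Z-disc, had 1 read over all 6 libraries. Tnni3, the adult cardiac troponin I, had 0, 0 and 4 reads in control and 0, 2 and 1 in HSPA1A libraries. Myl2, the ventricular regulatory light chain, Tcap, which caps titin at the Z-disc, Myoz2, a calcineurin-binding Z-disc protein, and Csrp3, a muscle LIM protein, had 1 to 3 reads at most in any library. The giant sarcomere gene Ttn had 38, 22 and 26 reads in control and 19, 24 and 20 in HSPA1A libraries and was tested. Scaled by its length, these reads were listed as 0.01 FPKM in every library. The atrial light chain gene Myl4 was at 0.88, 0.76 and 0.98 FPKM in control and 1.15, 0.95 and 0.58 FPKM in HSPA1A libraries, which overlapped. These counts stand against the label of an atrial muscle line, for which Actc1, Actn2 and Ttn are defining sarcomere genes.

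**Figure D1:**
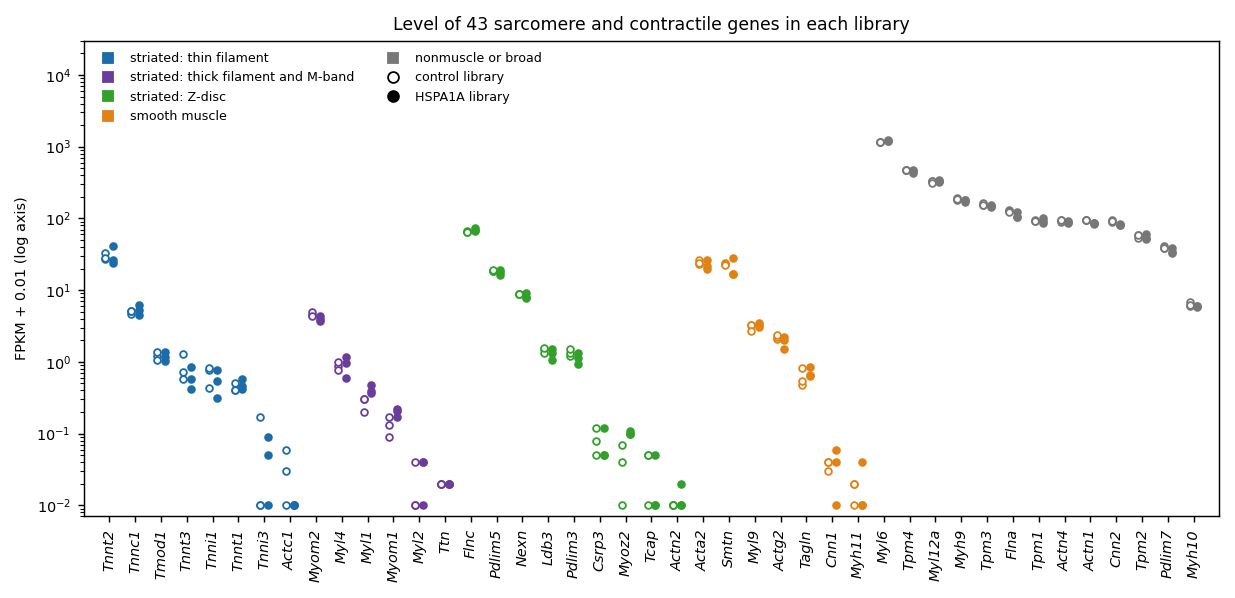
Deposited FPKM plus 0.01 on a log axis for the 43 genes with a row, ordered by role and level, with open circles for control and filled circles for HSPA1A libraries. The nonmuscle or broad genes lie between 5.82 (Myh10) and 1235.72 FPKM (Myl6). Actc1, Actn2, Myl2, Tcap, Cnn1 and Myh11 lie at or near 0 in every library.

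A few striated genes were present at moderate levels. Tnnt2, the cardiac troponin T that ties troponin to tropomyosin, was at 32.72, 26.96 and 28.17 FPKM in the controls and 23.68, 41.03 and 26.37 in the HSPA1A libraries. It supplied 94.4% to 97.0% of the summed FPKM of the 3 troponin T genes. Flnc, the muscle filamin found at the Z-disc, was the highest of the genes grouped as striated. It was at 67.27, 64.83 and 64.44 FPKM in control and 74.03, 66.33 and 68.55 FPKM in HSPA1A libraries. Pdlim5, a PDZ and LIM adapter of the Z-disc, stood at 18.72, 18.78 and 18.84 FPKM in control and 16.49, 19.29 and 18.07 FPKM in HSPA1A libraries. Nexn, an actin-binding Z-disc protein, was at 8.83, 8.8 and 8.88 FPKM in control and 9.2, 7.87 and 8.08 FPKM in HSPA1A libraries. For both, the HSPA1A values lay on either side of the controls. Tnnc1, the calcium-binding troponin C of heart and slow muscle, was at 4.63, 5.09 and 5.12 FPKM in control and 5.2, 6.25 and 4.46 FPKM in HSPA1A libraries, but it overlaps Nisch on the other strand. Myom2, an M-band protein, was at 4.52, 4.94 and 4.42 FPKM in control and 4.29, 3.69 and 3.99 FPKM in HSPA1A libraries. Myom2 was lower in each HSPA1A library on this scale, but its CPM, given by the fit used for testing, overlapped between the groups. Tmod1, which caps the slow-growing end of thin filaments, was at 1.2, 1.04 and 1.35 FPKM in control and 1.02, 1.37 and 1.15 FPKM in HSPA1A libraries. Ldb3 and Pdlim3, further PDZ and LIM proteins of the Z-disc, lay between 0.92 and 1.56 FPKM in each library.

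The smooth muscle genes were split in the same way. Acta2, the smooth muscle actin, was at 25.93, 22.81 and 23.6 FPKM in control and 21.73, 26.53 and 19.59 in HSPA1A libraries. It made up 89.8% to 93.5% of the summed FPKM of Actc1, Acta2 and Actg2. Smtn, an actin-binding protein of smooth muscle, was at 24.26, 23.43 and 22.74 FPKM in control and 16.86, 27.64 and 16.97 FPKM in HSPA1A libraries. Myl9, a regulatory light chain, was at 3.24, 3.22 and 2.67 FPKM in control and 3.49, 3.1 and 3.21 FPKM in HSPA1A libraries, which overlapped. Over the 6 libraries Actg2, the enteric smooth muscle actin, lay at 1.51 to 2.34 FPKM and the actin-binding Tagln at 0.46 to 0.85. Myh11, the smooth muscle myosin heavy chain, had 0, 1 and 1 reads in control and 6, 0 and 0 in HSPA1A libraries. Cnn1, the smooth muscle calponin, had at most 3 reads in any library, while its broadly expressed relative Cnn2 was at 80.55 to 93.68 FPKM.

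Marker genes outside the set were also looked up. The cardiac transcription factor genes Gata4 and Nkx2-5 were at 7.44 to 9.23 and 1.74 to 2.56 FPKM, and the calcium pump gene Atp2a2 at 72.42 to 92.04, but Tbx5 and the calcium release channel gene Ryr2 had 19 and 11 reads over all libraries. The skeletal muscle lineage factor Myf5 was at 41.94 to 49.05 FPKM and Myod1 at 1.39 to 2.15, whereas Myog and the muscle creatine kinase gene Ckm had 19 and 3 reads in all. The intermediate filament gene Des, which all muscle types use, was at 166.59 to 205.85 FPKM. In bulk RNA, fewer cells of a type and less RNA per cell cannot be told apart.

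RefSeq windows of 300 bases (250 before to 50 after a start site, GRCm38.p6) were found for 39 of the 46 genes, in 48 windows. A CArG box, searched on both strands, was in 9 of these windows (18.8%), against 1.63% of all 32851 windows of that length. Only exact matches were counted, with nothing but A or T between CC and GG, as in CCAAATAAGG of Actc1. Both Ldb3 windows overlap and hold the same box. By gene it was in 8 of the 39 (20.5%), against 1.81% of the 27025 genes in the table. The muscle element CATTCC, searched on both strands, was in a window of 16 of the 39 genes (41.0%), against 16.6% of the 27025 genes in the table. The genes with a row and an exact CArG match were Actc1, Ldb3, Myom1, Myl9, Myl6 and Cnn2, which range from nearly no reads (Actc1) to the highest level of the set (Myl6). Near matches were not counted, so genes outside this list may still carry a related element. The Acta2 window, for example, had no exact match but holds ccctatatgg and ccttgtttgg, each with a C or G between CC and GG. Windows of genes at different levels carry the same element, as shown here for Actc1, at 0 to 0.05 FPKM (chr2:114052826-114053125, minus strand), Myl9, at 2.67 to 3.49 (chr2:156775214-156775513, plus strand), Cnn2, at 80.55 to 93.68 (chr10:79988350-79988649, plus strand) and Myom1, at 0.08 to 0.21 (chr17:71019307-71019606, plus strand), 5′ to 3′ on the gene's strand with the CArG box in capitals.
Actc1: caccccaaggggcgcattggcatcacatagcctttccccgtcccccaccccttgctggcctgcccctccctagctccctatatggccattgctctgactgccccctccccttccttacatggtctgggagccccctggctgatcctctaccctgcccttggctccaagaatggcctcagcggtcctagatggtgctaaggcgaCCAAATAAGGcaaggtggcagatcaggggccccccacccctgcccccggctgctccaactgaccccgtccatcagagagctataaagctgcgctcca
Myl9: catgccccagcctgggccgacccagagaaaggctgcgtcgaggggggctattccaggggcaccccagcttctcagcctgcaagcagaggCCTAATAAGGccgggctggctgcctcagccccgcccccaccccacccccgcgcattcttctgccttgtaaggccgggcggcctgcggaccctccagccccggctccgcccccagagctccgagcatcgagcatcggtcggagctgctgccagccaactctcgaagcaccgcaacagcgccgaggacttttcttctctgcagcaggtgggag
Cnn2: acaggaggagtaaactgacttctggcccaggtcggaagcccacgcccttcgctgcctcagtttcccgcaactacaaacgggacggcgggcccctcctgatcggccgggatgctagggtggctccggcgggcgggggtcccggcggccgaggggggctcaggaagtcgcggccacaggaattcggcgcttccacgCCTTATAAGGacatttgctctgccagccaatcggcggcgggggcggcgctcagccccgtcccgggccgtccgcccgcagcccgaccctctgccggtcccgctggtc
Myom1: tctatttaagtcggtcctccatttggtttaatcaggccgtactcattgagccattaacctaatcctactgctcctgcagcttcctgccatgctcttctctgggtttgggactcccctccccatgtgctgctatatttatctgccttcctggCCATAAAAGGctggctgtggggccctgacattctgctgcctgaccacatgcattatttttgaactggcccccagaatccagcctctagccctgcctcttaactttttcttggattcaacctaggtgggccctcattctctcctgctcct
The boxes begin 47 bases before the start site in Actc1, 161 in Myl9, 56 in Cnn2 and 99 in Myom1. A match to these letters is a description of the window and shows no binding.

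The main comparison asked whether any contractile gene differed between HSPA1A and control cells. By edgeR's quasi-likelihood test, 0 of 34 tested genes passed an adjusted p of 0.05 in either direction, where 0.179% of all 12827 tested genes did, and DESeq2 called 0 as well. An unadjusted p under 0.05 was found for 5 genes, or 14.7%, against 8.59% of all tested genes. Myl1, Myom1 and Flnc were on the higher side and Flna and Cnn2 on the lower. The median log2 fold change of the 34 was -0.007, with 14 values above 0 and 20 below, and that of all tested genes was 0.0029. The groups did not overlap for 5 of the 34 (14.7%), a share near the 14.5% of all tested genes. These 5 were Myl1, Myom1 and Myl6 on the higher side and Actn1 and Cnn2 on the lower.

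The precision differed by level. For the 13 nonmuscle or broad genes, all of them tested, the log2 fold changes lay between -0.14 (Flna) and 0.10 (Myl6), and every 95% interval lay between -0.27 and 0.22. For the 6 tested thin filament genes of striated muscle the intervals reached from -1.24 to 0.90, and for the 5 tested thick filament and M-band genes from -0.98 to 1.42. The intervals of the low genes thus leave larger differences possible than those of the nonmuscle or broad genes.

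**Figure D2:**
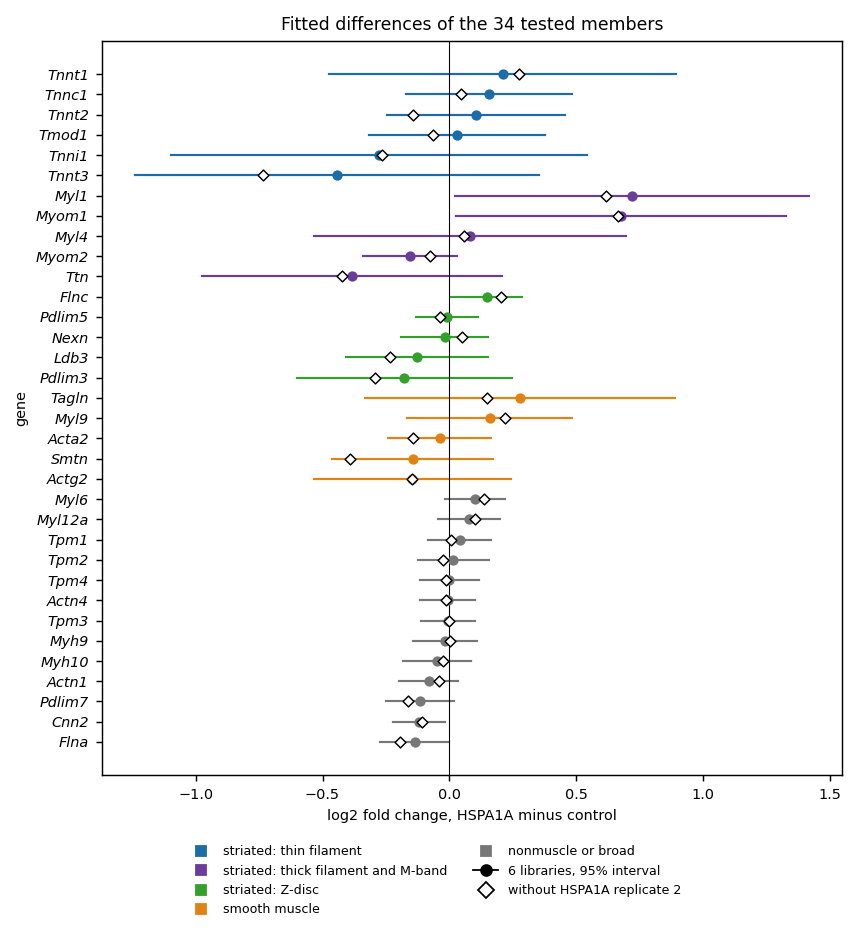
Fitted log2 fold change (HSPA1A minus control) with its 95% interval for the 34 tested genes, by role, with open diamonds for the fit without HSPA1A replicate 2. The nonmuscle or broad genes sit within 0.14 of 0 and the intervals widen for the low striated genes. The diamond of Smtn lies at -0.39.

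CPM was scaled by TMM, edgeR's library normalisation. Among the nonmuscle or broad genes, Cnn2, which encodes calponin 2, was at 238.0, 241.6 and 241.6 CPM in the controls. It was at 223.0, 218.7 and 222.1 CPM in the HSPA1A libraries. Each HSPA1A library was below each control, by a mean of 1.09-fold (log2 fold change -0.12 ± 0.05 SE). The adjusted p was 0.528 by edgeR's quasi-likelihood test, so the difference did not pass. Cnn2 was the tested member with the smallest p (unadjusted p = 0.0273, edgeR). The genes Actn1 and Actn4 encode the alpha-actinins of nonmuscle cells. They took 47.5% to 51.6% and 48.4% to 52.5% of the summed FPKM of Actn1, Actn2 and Actn4. Actn1 was at 387.6, 377.5 and 382.5 CPM in control and 370.0, 342.0 and 372.9 CPM in HSPA1A libraries, lower in all 3, with an adjusted p of 0.706 (edgeR). The tropomyosin genes kept their proportions within narrow ranges: Tpm4 supplied 59.9% to 60.9% of the summed tropomyosin FPKM, Tpm3 19.4% to 20.9%, Tpm1 11.9% to 12.6% and Tpm2 6.83% to 7.6%. Of the 50-base stretches in Tpm3 transcripts, 23.2% also occur in other genes, as do 16.4% in Myl12a (shared with Myl12b among others), 11.7% in Tpm4 and 8.38% in Myl6, so the counts of these 4 genes are less certain. Myh9 supplied 96.6% to 96.9% of the summed FPKM of Myh9, Myh10 and Myh11.

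The filamin genes had values on opposite sides of the controls in HSPA1A replicates 1 and 3. Flna was at 1184, 1111 and 1117 CPM in the controls and 991.8, 1115 and 994 CPM in the HSPA1A libraries. HSPA1A replicates 1 and 3 lay below every control, and replicate 2 lay within their range. Flnc was at 648, 612 and 612 CPM in the controls and 744, 637 and 692 CPM in the HSPA1A libraries. Here HSPA1A replicates 1 and 3 lay above every control, and replicate 2 again lay within their range. With all 6 libraries neither passed edgeR's quasi-likelihood test, at log2 fold changes of -0.14 ± 0.06 (SE, adjusted p = 0.580) for Flna and 0.15 ± 0.06 (adjusted p = 0.568) for Flnc. The Flnc value was 0.09 without HSPA1A replicate 1 and 0.205 without HSPA1A replicate 2. As a share of the FPKM of both genes, Flna took 66.0%, 65.8% and 65.9% in the controls and 58.6%, 65.0% and 60.4% in the HSPA1A libraries. No 50-base stretch of their transcripts occurs in another gene.

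Smtn, the smooth muscle gene, split the HSPA1A libraries. It was at 101.1, 95.7 and 93.5 CPM in the controls and 73.3, 114.8 and 74.1 CPM in the HSPA1A libraries. Replicates 1 and 3 were below every control and replicate 2 was above every control, so the mean difference was small beside the spread (log2 fold change -0.15 ± 0.14 SE, adjusted p = 0.817, edgeR). Tnnt2 was at 44.2, 35.7 and 37.5 CPM in the controls and 33.4, 55.2 and 37.3 CPM in the HSPA1A libraries, with replicate 2 the highest of all 6. Its log2 fold change was 0.11 ± 0.16 (SE) with all libraries and -0.15 ± 0.08 without HSPA1A replicate 2, and neither passed. Acta2 was at 49.4, 42.6 and 44.4 CPM in the controls and 43.2, 50.4 and 39.1 CPM in the HSPA1A libraries, where the groups overlapped and replicate 2 was again the highest.

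**Figure D3:**
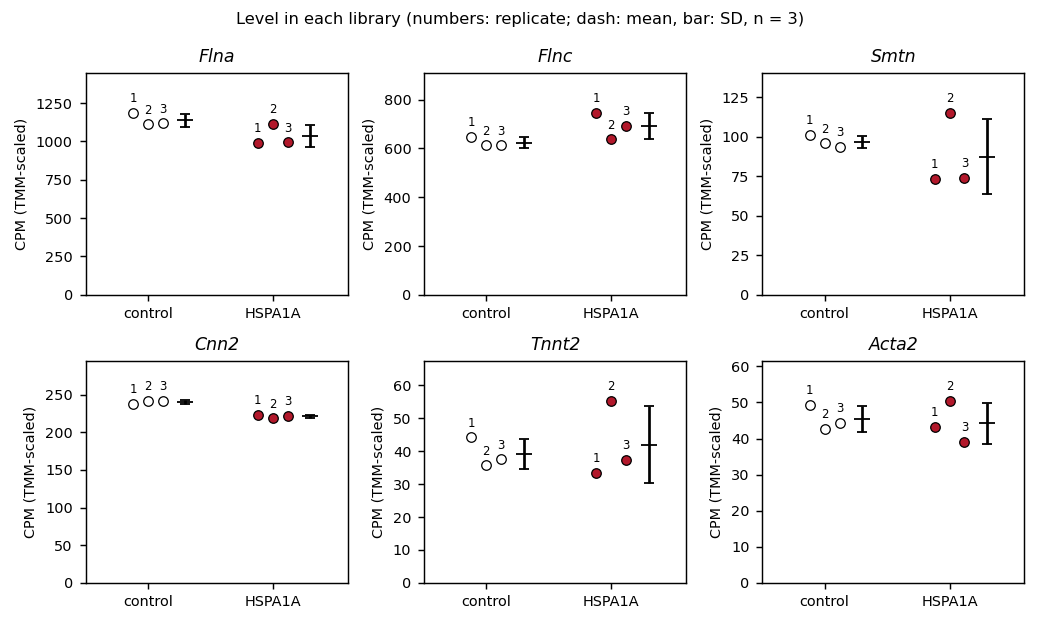
CPM scaled by TMM in each library for Flna, Flnc, Smtn, Cnn2, Tnnt2 and Acta2, with replicate numbers above the points and the mean and SD (n = 3) at the right of each group. HSPA1A replicate 2 lies with or above the controls for Flna, Smtn, Tnnt2 and Acta2, while the 3 HSPA1A libraries lie together at 218.7 to 223.0 CPM for Cnn2.

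Without HSPA1A replicate 2, edgeR's quasi-likelihood test called 3 of the 34 genes (8.82%), where it called 10.2% of all tested genes, so the share was no higher than the background. Smtn was lower at a log2 fold change of -0.39 ± 0.05 (SE, adjusted p = 0.000305). Flna was lower at -0.19 ± 0.05 (adjusted p = 0.0165) and Flnc higher at 0.205 ± 0.048 (adjusted p = 0.0149). Pdlim7, a PDZ and LIM protein that binds actin filaments, missed the threshold at -0.16 ± 0.05 (adjusted p = 0.0507, edgeR). In that fit the HSPA1A group holds 2 libraries. Leaving out any other single library gave 0 called genes of the 34. Smtn overlaps the predicted genes Gm11946 and Gm11947 on the other strand, as Tagln overlaps Pcsk7, Myom2 overlaps Gm15678 and Tpm4 overlaps Gm16091, so without a known strand setting their reads cannot be told apart.

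**Figure D4:**
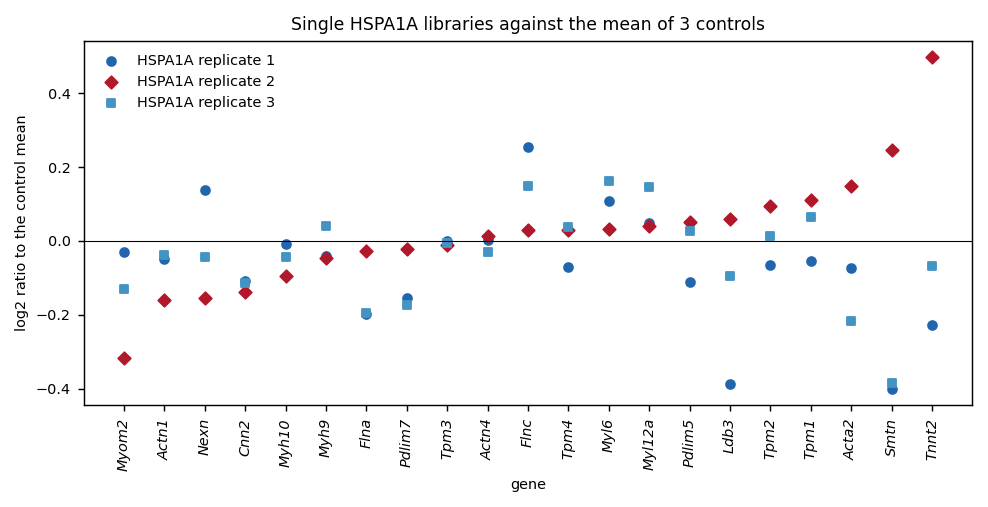
Log2 ratio of each HSPA1A library to the mean of the 3 controls, in CPM scaled by TMM, for the 21 tested genes with a control mean of at least 5 CPM, ordered by replicate 2. Replicates 1 and 3 lie near each other and apart from replicate 2 for Smtn, Flna and Pdlim7, and all 3 replicates lie below 0 for Cnn2.

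Other measures moved with these libraries. The noncoding transcript Yam1 took 1.86%, 1.18% and 1.23% of counts in the controls and 2.70%, 1.58% and 2.53% in the HSPA1A libraries. The summed FPKM of 8 fibroblast markers was 151.6 to 155.3 in the controls and 132.2, 161.8 and 133.6 in HSPA1A replicates 1 to 3, and Lum and Thy1 of that list had 1 read each. Most of that sum came from the collagen genes Col3a1, Col1a2 and Col1a1, and Dcn of the same list was at 7.61 to 8.83 FPKM in the controls and 7.08, 6.92 and 9.14 FPKM in the HSPA1A libraries, lowest in replicate 2. The macrophage marker sum was 11.56 to 14.35 FPKM in the controls and 11.59, 17.06 and 10.48 in the HSPA1A libraries, with 2 reads of its defining marker Ptprc in all. The smooth muscle marker sum, mostly Des, was 194.7 to 207.2 FPKM in the controls and 180.0, 181.0 and 167.8 in the HSPA1A libraries, lower in all 3. In the fit of all libraries 6 of the 8 fibroblast markers were tested and none was called. Without HSPA1A replicate 2, Col1a1 and Col3a1 were called lower, 2 of 6 where 10.2% of all tested genes were called. The part of these measures in the values of Smtn, Flna and Flnc was not tested.

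Among the low striated genes, Myl1, a fast muscle light chain, had 12, 11 and 8 reads in the controls and 14, 20 and 15 in the HSPA1A libraries. The groups did not overlap in CPM, and the log2 fold change of 0.72 ± 0.315 (SE) had an adjusted p of 0.570 (edgeR). Of its 50-base stretches, 11.7% also occur in the pseudogene Mylf-ps. Myom1, an M-band protein that links thick filaments, had 19, 12 and 26 reads in the controls and 31, 32 and 24 in the HSPA1A libraries, with a log2 fold change of 0.68 ± 0.29 (SE, adjusted p = 0.568, edgeR), or 0.46 to 0.96 when single libraries were left out. Myom1 overlaps Myl12a on the other strand, which had 18931 to 21742 reads per library, and the sources used here do not say if strand was used in counting. The origin of its few reads is thus uncertain.

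The other genes of contraction were taken from a list of 77 that regulate or complete this machinery, of which 72 had a row and 55 were tested. None was called in either direction with all libraries by edgeR or DESeq2. Before adjustment, p was under 0.05 for 1 gene on the higher and 4 on the lower side (9.09%, beside the same 8.59%), and the median log2 fold change was -0.020. Des was at 625.4, 653.4 and 655.3 CPM in control and 604.6, 579.4 and 565.4 CPM in HSPA1A libraries, lower in all 3 (adjusted p = 0.510, edgeR). Zyx, a focal adhesion LIM protein, was at 640.2, 639.2 and 619.0 CPM and 543.3, 615.8 and 532.7 CPM (adjusted p = 0.517). Obsl1, an obscurin-like cytoskeletal adapter, Mylk2, the skeletal myosin light chain kinase, and Tnni2, the fast troponin I, were the other 3, with log2 fold changes of -0.31, -0.34 and 0.59. Without HSPA1A replicate 2, 4 of the 55 were called (7.27%, below the 10.2% of all tested genes), namely Zyx, the alpha-actinin gene Actn3 and the muscle ubiquitin ligase gene Trim54 lower and the LIM protein gene Fhl1 higher.

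The SRF axis showed no called gene. Srf was at 64.5, 66.8 and 66.6 CPM in the controls and 64.9, 58.7 and 63.7 CPM in the HSPA1A libraries, a log2 fold change of -0.08 with a 95% interval from -0.20 to 0.04. Its cofactor genes Mkl1 and Mkl2, which respond to free actin, had log2 fold changes of 0.042 and 0.039, and neither sign was stable: Mkl1 was at -0.079 without HSPA1A replicate 2 and Mkl2 at -0.002 without HSPA1A replicate 1. Myocd, the muscle cofactor of SRF, was low at 0.083 FPKM on average. It had 13, 16 and 14 reads in the controls and 10, 12 and 6 in the HSPA1A libraries, and its CPM did not overlap between the groups. Its log2 fold change of -0.56 ± 0.35 (SE) was the largest in size of the 8 tested genes of the axis and did not pass (adjusted p = 0.692, edgeR). The nonmuscle actins Actb and Actg1, at 1621 and 1087 FPKM on average, had log2 fold changes of -0.10 and -0.014, and neither was called. Actg1 ranged from -0.088 to 0.024 when single libraries were left out. Acta1, the skeletal actin, averaged 0.343 FPKM, and Myh7, the slow and cardiac myosin heavy chain, had 1 read in all.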

How the data were processed

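Per the labels, 6 libraries of polyadenylated RNA from a stranded kit were sequenced as paired reads. Bcl2fastq, TopHat2, edgeR and the build GRCm38 are named in the submitters' processing notes. The sources used here do not give the counter, the strand setting or the annotation release. The authors deposited whole read counts per gene and FPKM rounded to 2 decimals. Genes were kept by filterByExpr (minimum count 10, minimum total 15; 12827 of 22913) and tested on counts with edgeR 4.0.16 (R 4.3.3), TMM scaling, glmQLFit and glmQLFTest, no covariates, Benjamini-Hochberg adjustment over all tested genes and a threshold of 0.05. The members, lists and tests were chosen with earlier results of these data known. Values in every library are given for called genes, those with an unadjusted p under 0.05 and the 3 highest by FPKM in each role; some others were named after their values were seen. Coordinates and overlaps come from GENCODE M21, in which 22729 gene identifiers were found without version numbers. The fit was run on simulated counts, where it called 82% of genes changed 1.5-fold and 0.066% of unchanged genes. Smaller changes, an outlying library and spread particular to single genes were not simulated. The 82% pools genes of all levels, so it does not give the share for low genes such as Myl1 and Myom1. Alternatives were other scalings, filters, DESeq2 1.42.0, limma 3.58.1 on log2 FPKM, a replicate block and leaving out each library.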

Additional observations from a re-analysis of the deposited data

How the results depend on the processing

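No contractile gene of the set passed the test in any alternative except the fit without HSPA1A replicate 2, so leaving out one library gave 0 to 3 called genes, and 0 to 4 for the list of other genes of contraction. Over all genes, 23 were called; the count was 64 by DESeq2, 205 with no filter on low counts, 15 by limma on log2 of FPKM plus 1, 15 with the further minimum of a mean FPKM of 1, and 10 to 1323 when single libraries were left out (14, 13 and 10 without control replicates 1, 2 and 3, and 13, 1323 and 14 without HSPA1A replicates 1, 2 and 3). With the replicate number as a block it was 16, with 0 of the set; same-numbered libraries had correlations of -0.1, -0.002 and 0.085 between their deviations from the group means, so the numbers were not taken to pair them.

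Of 261 fold changes of 18 named genes over 15 alternatives, 16 lay on the other side of 0 from the value with all libraries, 3 gained a call (Smtn, Flna and Flnc, given above) and 242 kept direction and call status. None of the genes whose sign turned was called, and the cause was not tested. Tmod1 was at -0.002 on library totals, -0.012 by limma on FPKM plus 1 with or without the minimum and -0.021 with 0.1. Myl4 was at -0.009 by limma with 0.1. Leaving out single libraries gave ranges of -0.145 to 0.244 for Tnnt2, -0.066 to 0.125 for Tmod1, -0.142 to 0.300 for Myl4, -0.099 to 0.051 for Nexn, -0.037 to 0.039 for Pdlim5, -0.142 to 0.045 for Acta2 and -0.017 to 0.034 for Tpm4. The Smtn log2 fold change ranged from -0.39 to -0.03 and was -0.033 without HSPA1A replicate 1 and -0.037 without HSPA1A replicate 3. The effect of depth on the striated genes under 1 FPKM was not tested.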
